A study of Mus musculus with 6 samples.

Results

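Voltage-gated sodium and calcium channels are the membrane proteins that carry the action potential and turn it into calcium entry, and 39 of their subunit genes were followed in mESC-derived motor neurons (MNs). They were taken by gene symbol, as all genes named Scn with a number and the letter a or b, and all genes named Cacna, Cacnb or Cacng with a number. The deposited table holds 34433 gene symbols in all. Where a symbol had several entries, the entry with the highest level was used. The MNs came from Hb9 control mESCs (labelled wildtype, SMN2+/+;mSmn+/+ in the study's methods) and from A2 SMA mESCs (SMN2+/+;mSmn-/-), called Hb9 MNs and A2 MNs here, with 3 samples per genotype. Both lines have the FVB/N background, the human SMN2 transgene and eGFP under the control of the HB9 promoter. Each genotype is 1 mESC line, so genotype and line cannot be told apart. Both were formed into embryoid bodies, exposed for 5 days to 1 µM retinoic acid and 1 µM Smoothened agonist, and sorted for GFP. The question was how the transcripts of A2 MNs differ from those of Hb9 MNs.

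Levels are given as FPKM, fragments per kilobase of exon scaled by the depth of the library. The table gives 1 value for the 3 samples of each genotype. Without replicate values, differences carry no error and no test was made. In its place, a difference of at least 2-fold was counted when the higher genotype reached at least 1 FPKM, and the share of all gene symbols past the same limit is given beside it. Log2 ratios are A2 SMA over Hb9 control without a pseudocount.

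A sodium channel is built around 1 large pore subunit, encoded by an Scn gene ending in a, and joined by small beta subunits that set its gating and place in the membrane. A calcium channel has a pore subunit of the Cacna1 group, a cytoplasmic beta subunit (Cacnb) that brings the pore to the surface, and an alpha2delta subunit (Cacna2d) on the outer face. The Cacng family was named for a muscle calcium channel subunit, but many of its members are TARPs, which escort AMPA-type glutamate receptors. In motor neurons, sodium channels start the action potential, T-type calcium channels shape firing, and N-type and P/Q-type channels open at the terminal to release transmitter.

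Smn1, the gene deleted in the A2 line, was at 137 FPKM in Hb9 MNs and 5.26 FPKM in A2 MNs. Of 8 MN marker genes in the table, 7 reached 1 FPKM, and 6 of these were at least 2-fold lower in A2 MNs. Of the 6, 3 reached 1 FPKM in Hb9 MNs alone, and of the 4 genes that reached it in both genotypes 3 were lower. The exception was Mnx1, which encodes Hb9, at 41.2 and 44.2 FPKM. All 6 neuronal marker genes in the table were lower, summing to 360.2 FPKM in Hb9 MNs and 23.0 FPKM in A2 MNs, and 2 of them reached 1 FPKM in Hb9 MNs alone. All 7 marker genes of pluripotent cells were higher, from a sum of 270.1 to a sum of 1784 FPKM. For interneurons 6 of 6 genes above 1 FPKM were lower, and for glia or progenitors as well as for sensory neurons or neural crest 3 of 4. Of these lower genes, 5 of interneurons and 2 of sensory neurons or neural crest reached 1 FPKM in Hb9 MNs alone. Of 7 striated muscle genes 1 reached 1 FPKM, and it was lower. Of fibroblast genes 2 of 4 were lower and 1 higher, and both endothelial genes were higher, from a sum of 22.6 to a sum of 71.0 FPKM. Most of that sum was Pecam1, at 21.8 and 68.7 FPKM, while Cdh5 was at 0.796 and 2.33 FPKM. The higher fibroblast gene and Cdh5 reached 1 FPKM in A2 MNs alone. Beside these counts, 22.3% of all 15838 gene symbols that reached 1 FPKM were at least 2-fold lower and 6.86% at least 2-fold higher. Among symbols that reached it in both genotypes, the shares were 17.8% and 4.95%. No marker gene in the table was at 0 in either genotype. The part that these cell types have in the channel values was not tested, and in sorted bulk RNA fewer cells of a type and less RNA per cell cannot be told apart.

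Of the 39 channel genes, 26 reached 1 FPKM in at least 1 genotype. In A2 MNs 18 of the 26 were at least 2-fold lower, 2 were at least 2-fold higher and 6 were within 2-fold. Among all gene symbols that reached 1 FPKM, 22.3% were at least 2-fold lower and 6.86% at least 2-fold higher. The median log2 ratio was -2.29 over the 26 channel genes and -0.29 over all symbols. The filter shaped this count, because 9 of the 18 lower genes reached 1 FPKM in Hb9 MNs alone. Of the 17 that reached it in both genotypes, 9 were at least 2-fold lower, against 17.8% of all symbols with the same property, and 2 were higher, against 4.95%. Just inside the limit were Cacng8, at 2.041-fold higher, and Scn8a, at 2.31-fold lower. Just outside it was Cacna2d2, at 1.99-fold lower.

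The listed locus of 18 channel genes is shared with an entry of another gene, and for 6 of them that entry reached 1 FPKM. A shared locus does not by itself show that the genes overlap. The largest such entry at a channel gene above 1 FPKM was Dcp1b at Cacna1c, at 14.7 FPKM in Hb9 MNs and 8.75 FPKM in A2 MNs. Whether the libraries were counted by strand is not given in the sources used here. Where such genes do overlap, their reads could therefore be split between them.

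**Figure D1:**
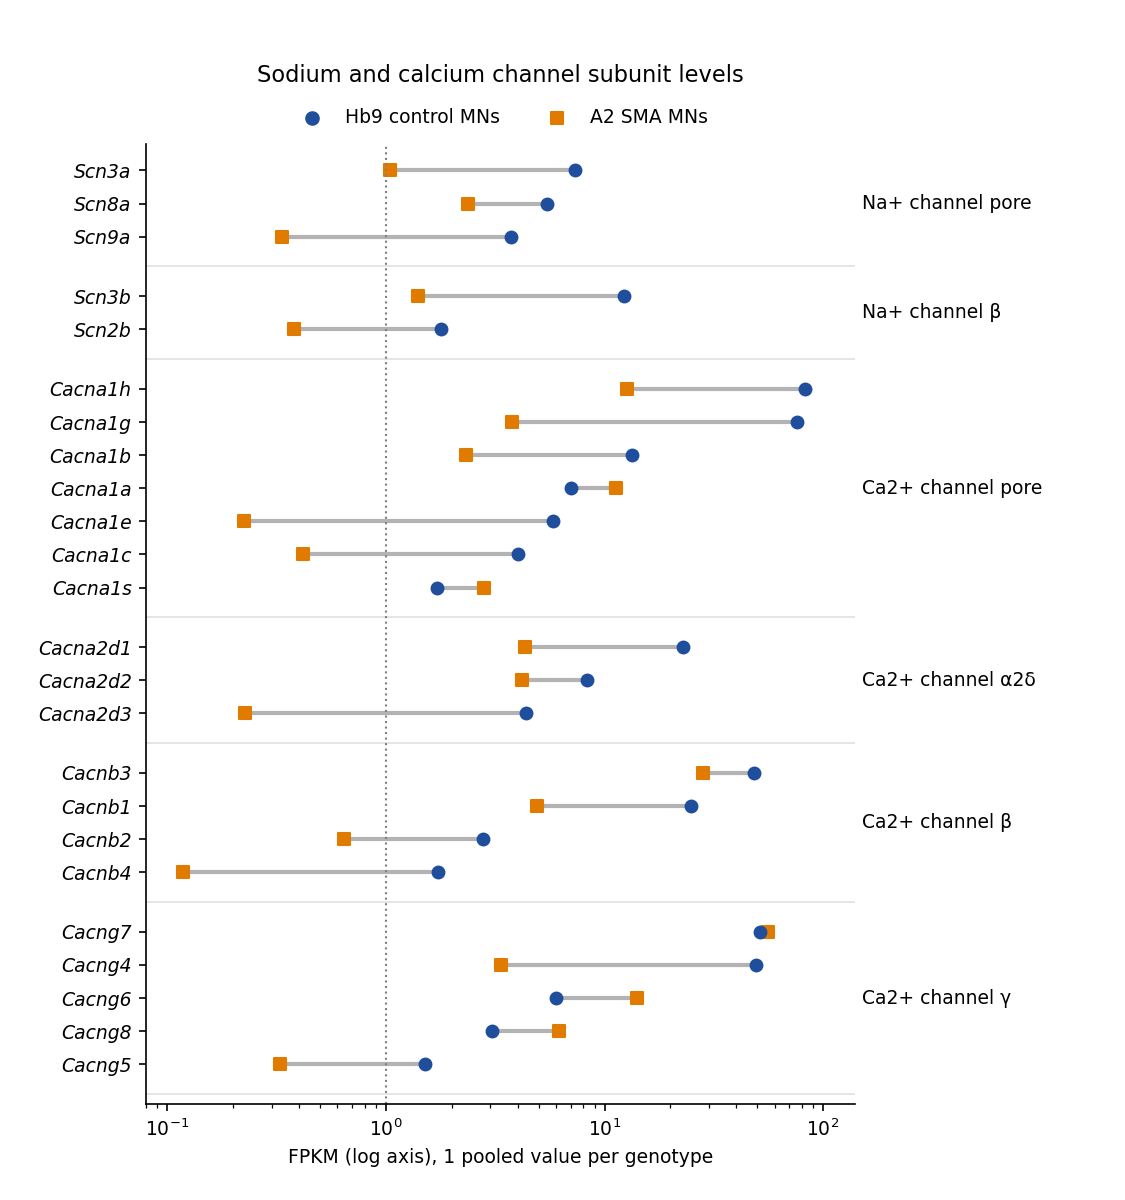
FPKM of 24 of the 26 channel subunit genes that reached 1 FPKM in at least 1 genotype, on a log axis, with 1 pooled value for Hb9 MNs (blue circles) and 1 for A2 MNs (orange squares) and a dotted line at 1 FPKM. The A2 value lies to the left of the Hb9 value for 19 genes and to the right for 5, which are Cacna1a, Cacna1s, Cacng6, Cacng7 and Cacng8.

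The remaining 13 genes stayed under 1 FPKM in both genotypes, from 0.0228 to 0.864 FPKM in Hb9 MNs and from 0 to 0.275 FPKM in A2 MNs. They were Scn1a, Scn4a, Scn7a, Scn10a, Scn11a, Scn4b, Cacna1d, Cacna1f, Cacna1i, Cacna2d4, Cacng1, Cacng2 and Cacng3. Several of these are known from other excitable cells, with Scn4a and Cacng1 in skeletal muscle, Scn10a and Scn11a in sensory neurons and Cacna1f in the retina. Scn4b was the only one listed higher in A2 MNs, at 0.0819 and 0.178 FPKM. The 0 belongs to Scn4a, whose highest entry was at 0.295 FPKM in Hb9 MNs and listed at 0 in A2 MNs. Cuffdiff marked 10 of the 13 genes as having too few alignments to test, and the read numbers are unknown.

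Promoter sequences are shown for 5 genes that reached 1 FPKM and have a single promoter in the reference. Cacna1e, Scn9a and Cacna2d3 had the lowest log2 ratio of such genes among the calcium channel pore, sodium channel pore and alpha2delta genes. Cacng6 had the highest log2 ratio of the gamma genes, and Cacng7 the highest level. RefSeq promoters of GRCm38.p6 (250 bases before to 50 after a transcription start) were found for 29 of the 39 genes, with 39 promoters. This build is not that of the expression table. Each sequence is written from 5′ to 3′ on the strand of the gene, with CpG dinucleotides in capitals.
Cacna1e (GRCm38.p6 chr1:154725871-154726170, minus strand): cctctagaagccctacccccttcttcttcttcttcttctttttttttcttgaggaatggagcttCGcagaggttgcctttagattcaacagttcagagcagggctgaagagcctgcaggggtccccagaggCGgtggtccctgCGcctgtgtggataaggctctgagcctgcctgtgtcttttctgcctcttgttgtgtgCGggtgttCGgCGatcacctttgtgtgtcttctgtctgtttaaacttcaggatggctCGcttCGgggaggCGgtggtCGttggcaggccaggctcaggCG
Scn9a (GRCm38.p6 chr2:66634913-66635212, minus strand): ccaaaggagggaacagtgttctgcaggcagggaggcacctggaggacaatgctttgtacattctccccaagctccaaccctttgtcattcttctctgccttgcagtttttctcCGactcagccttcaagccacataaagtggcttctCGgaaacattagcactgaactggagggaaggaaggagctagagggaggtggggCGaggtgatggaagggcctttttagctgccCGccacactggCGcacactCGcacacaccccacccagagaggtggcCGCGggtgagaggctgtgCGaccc
Cacna2d3 (GRCm38.p6 chr14:29721815-29722114, minus strand): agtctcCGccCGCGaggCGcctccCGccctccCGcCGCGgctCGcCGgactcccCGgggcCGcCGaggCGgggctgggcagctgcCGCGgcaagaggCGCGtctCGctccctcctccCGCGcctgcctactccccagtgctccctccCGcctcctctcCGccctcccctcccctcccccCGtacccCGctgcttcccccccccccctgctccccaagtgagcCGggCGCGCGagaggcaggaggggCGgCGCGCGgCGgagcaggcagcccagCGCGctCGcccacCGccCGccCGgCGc
Cacng6 (GRCm38.p6 chr7:3424412-3424711, plus strand): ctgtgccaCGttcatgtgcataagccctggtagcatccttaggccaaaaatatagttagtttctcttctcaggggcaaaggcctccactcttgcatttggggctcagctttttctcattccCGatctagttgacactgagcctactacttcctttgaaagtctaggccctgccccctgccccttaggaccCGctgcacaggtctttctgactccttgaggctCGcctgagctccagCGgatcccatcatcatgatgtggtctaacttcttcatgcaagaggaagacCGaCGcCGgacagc
Cacng7 (GRCm38.p6 chr7:3332575-3332874, plus strand): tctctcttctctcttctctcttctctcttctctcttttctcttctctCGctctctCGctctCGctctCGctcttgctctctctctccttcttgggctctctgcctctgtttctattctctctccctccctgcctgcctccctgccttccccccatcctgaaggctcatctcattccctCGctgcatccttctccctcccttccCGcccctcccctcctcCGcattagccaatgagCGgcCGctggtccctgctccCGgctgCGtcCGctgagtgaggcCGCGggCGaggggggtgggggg
Cacna2d3 had 41 CpG in its 300 bases, at a GC content of 81.3%, and its level was 19.3-fold lower in A2 MNs. Cacna1e and Scn9a, which were 25.98-fold and 11.2-fold lower, had 11 and 9 CpG. The promoter of Cacng6, which was higher, had 8 CpG, and that of Cacng7 had 15. CpG-dense and CpG-poor promoters were thus both found among the genes with large differences. A promoter was counted as CpG-rich with a GC content of at least 50% and an observed-to-expected CpG ratio of at least 0.6. This was met by 10 of 20 promoters of the 2-fold lower genes, by 3 of 7 of the other genes above 1 FPKM, by 4 of 12 of the genes under it, and by 33.5% of all 32851 promoters.

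Short motifs were searched on both strands of the same promoters. The E-box CAGCTG, a form bound by many neuronal bHLH factors, was in 13 of the 39 promoters of channel genes and in 16.3% of all promoters. It was in 6 of 20 promoters of the lower genes and 2 of 7 promoters of the other genes above 1 FPKM, and in 5 of 12 promoters of the genes under it. The E-box CAGATG was in 7 of 39, against 17.2% of all. The GC box GGGCGG was in 16 of 39, against 35.7% of all. TATAAA was found in 1 of 39, in Cacna1d, against 13.6% of all, and the homeodomain motif TAATTA in none of 39, against 5.29%. These matches are descriptions of the letters in short windows, and alternative promoters of 1 gene share that gene.

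All 4 sodium channel pore genes above 1 FPKM were at least 2-fold lower in A2 MNs, where 22.3% of all symbols were, with a median log2 ratio of -2.09. Of the 4, 2 reached 1 FPKM in Hb9 MNs alone. Scn3a, the pore subunit best known from embryonic neurons, had the highest level in Hb9 MNs. It was at 7.37 FPKM in Hb9 MNs and 1.04 FPKM in A2 MNs, 7.07-fold lower. Scn9a, known from nociceptors and sympathetic neurons, was at 3.73 and 0.334 FPKM, 11.2-fold lower.

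Scn8a (m37 chr15:100763860-100876360), which encodes the pore subunit of the axon initial segment and nodes of mature neurons, was at 5.48 FPKM in Hb9 MNs and 2.37 FPKM in A2 MNs. Its log2 ratio of -1.21 was the smallest in size among the 4 pore genes, and relative to the median gene it was -0.92, within 2-fold. Scn8a was second to Scn3a in Hb9 MNs and first in A2 MNs. Of the summed FPKM of all 9 sodium channel pore genes, its share was 27.5% in Hb9 MNs and 47.8% in A2 MNs. The share of Scn3a went the other way, at 36.98% and 21.0%. The sum itself was 19.9 FPKM in Hb9 MNs and 4.96 FPKM in A2 MNs, 4.01-fold lower.

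The mouse gene for a further central pore subunit is listed under the older symbol Scn2a1, which the naming rule does not take. It was at 0.792 FPKM in Hb9 MNs and 0.15 FPKM in A2 MNs. It is counted in none of the numbers above.

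The sodium channel pore genes of chromosome 2 lie close together, from 65295175 to 66622971 of NCBI m37, in the order Scn3a, Scn2a1, Scn1a, Scn9a and Scn7a. Their log2 ratios were -2.82, -2.40, -1.77, -3.48 and -0.47, in that order, and Scn2a1, Scn1a and Scn7a were under 1 FPKM. A ratio below 0 was found for 65.9% of all symbols above 1 FPKM. The levels along this stretch were uneven. In Hb9 MNs Scn3a and Scn9a were the genes above 1 FPKM, and Scn1a, directly beside Scn9a, was at 0.311 FPKM.

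Of the 3 sodium channel beta genes above 1 FPKM, 2 were at least 2-fold lower in A2 MNs, where 22.3% of all symbols were, and 1 of the 2 reached 1 FPKM in Hb9 MNs alone. Scn3b (m37 chr9:40076801-40099203), which encodes a beta subunit abundant in embryonic nervous tissue, was at 12.3 FPKM in Hb9 MNs and 1.41 FPKM in A2 MNs, 8.74-fold lower. Scn2b, whose product is disulfide-linked to the pore subunit, was at 1.78 and 0.379 FPKM, 4.69-fold lower. Scn3b made up 56.9% of the summed FPKM of the 4 beta genes in Hb9 MNs and 15.7% in A2 MNs. Summed over the genes of each kind, there were 1.09 FPKM of beta per FPKM of pore transcripts in Hb9 MNs and 1.81 in A2 MNs.

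**Figure D2:**
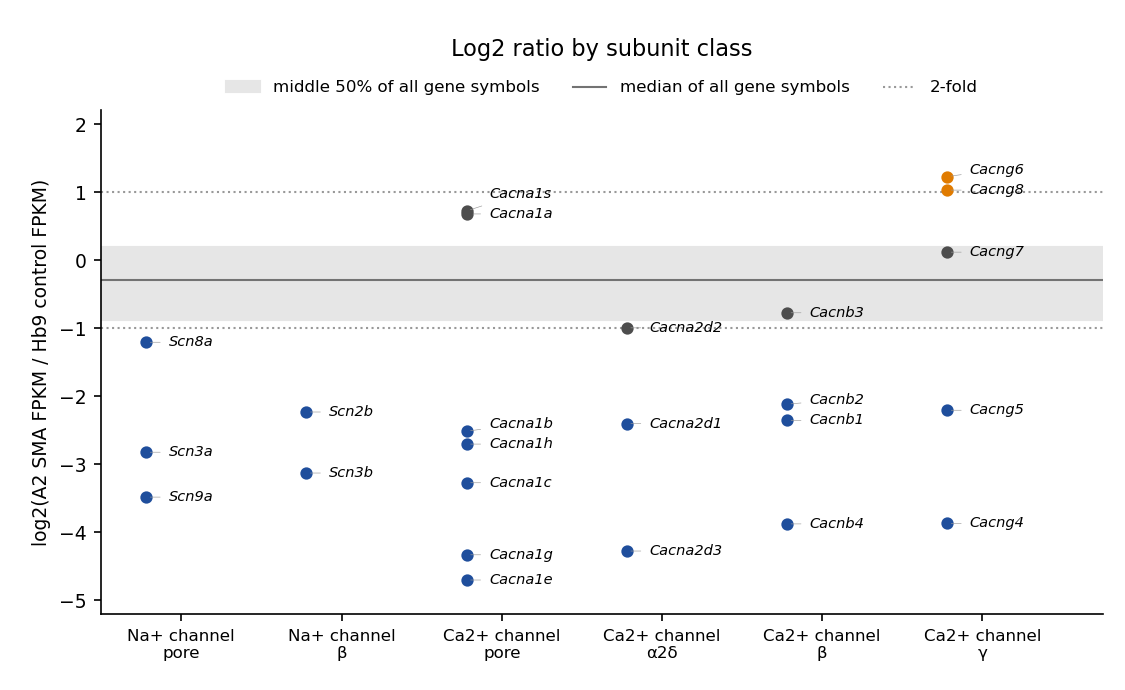
Log2 ratio of A2 SMA over Hb9 control FPKM for 24 of the 26 channel genes above 1 FPKM, by subunit class, with the 2-fold limits as dotted lines and the median (-0.29) and middle 50% (from -0.89 to 0.19) of all gene symbols in gray. Blue points are at least 2-fold lower, orange points at least 2-fold higher and gray points within 2-fold, and each sodium channel pore gene shown is below the lower limit while the gamma genes lie on both sides.

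Calcium channel pore genes included the most abundant transcripts of the whole set. The T-type genes Cacna1h and Cacna1g, whose channels open at low voltage, were the highest of all 39 genes in Hb9 MNs. In NCBI m37 the Cacna1h locus is chr17:25506218-25570728 and the Cacna1g locus chr11:94269705-94335414. Cacna1h was at 82.8 FPKM in Hb9 MNs and 12.7 FPKM in A2 MNs, 6.51-fold lower. Cacna1g was at 75.8 and 3.77 FPKM, 20.1-fold lower. Both T-type genes were thus lower, and the larger difference was that of Cacna1g. The third T-type gene, Cacna1i, was under 1 FPKM, at 0.809 and 0.275 FPKM. The 3 T-type genes together came to 159.4 FPKM in Hb9 MNs and 16.8 FPKM in A2 MNs, which is 9.505-fold lower.

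The high-voltage genes that serve transmitter release went in different directions. Cacna1b, the N-type pore subunit, was at 13.3 FPKM in Hb9 MNs and 2.33 FPKM in A2 MNs, 5.71-fold lower. A second entry at the same locus carries the symbol Cacna1b too, at 2.68 and 0.513 FPKM, so both entries were lower. Cacna1e (m37 chr1:156237898-156573852), the R-type pore subunit, had the lowest log2 ratio of the 26 genes, at -4.70. It was at 5.83 FPKM in Hb9 MNs and 0.225 FPKM in A2 MNs. Cacna1a (m37 chr8:86912339-87164145), the P/Q-type pore subunit that dominates release at mature neuromuscular junctions, was higher in A2 MNs, at 7.06 and 11.3 FPKM. That is 1.60-fold, within the 2-fold limit, and its log2 ratio of 0.68 was at or above those of 89.1% of all gene symbols.

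Of the L-type genes, Cacna1c, the pore subunit of heart and brain, was at 4.04 FPKM in Hb9 MNs and 0.418 FPKM in A2 MNs, 9.65-fold lower. Cacna1s, the pore subunit of skeletal muscle, was higher, at 1.71 and 2.82 FPKM. Its log2 ratio was 0.72, and relative to the median gene it was 1.01, past 2-fold. Of 7 marker genes of striated muscle, 6 were under 1 FPKM in both genotypes, and the sum of all 7 was 6.84 FPKM in Hb9 MNs and 3.11 FPKM in A2 MNs. Cacna1d was at 0.489 and 0.191 FPKM and Cacna1f at 0.137 and 0.0278 FPKM.

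The make-up of the calcium channel pore transcripts differed with these ratios. Their sum over 10 genes was 192.0 FPKM in Hb9 MNs and 34.1 FPKM in A2 MNs, 5.63-fold lower. T-type genes held 83.0% of the sum in Hb9 MNs and 49.2% in A2 MNs. The N-type, P/Q-type and R-type genes together held 13.7% and 40.7%. Within these, the share of Cacna1a was 3.68% in Hb9 MNs and 33.2% in A2 MNs, while that of Cacna1b was 6.95% and 6.85%. L-type genes held 3.32% and 10.1%, of which Cacna1s had 0.889% and 8.27%.

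**Figure D3:**
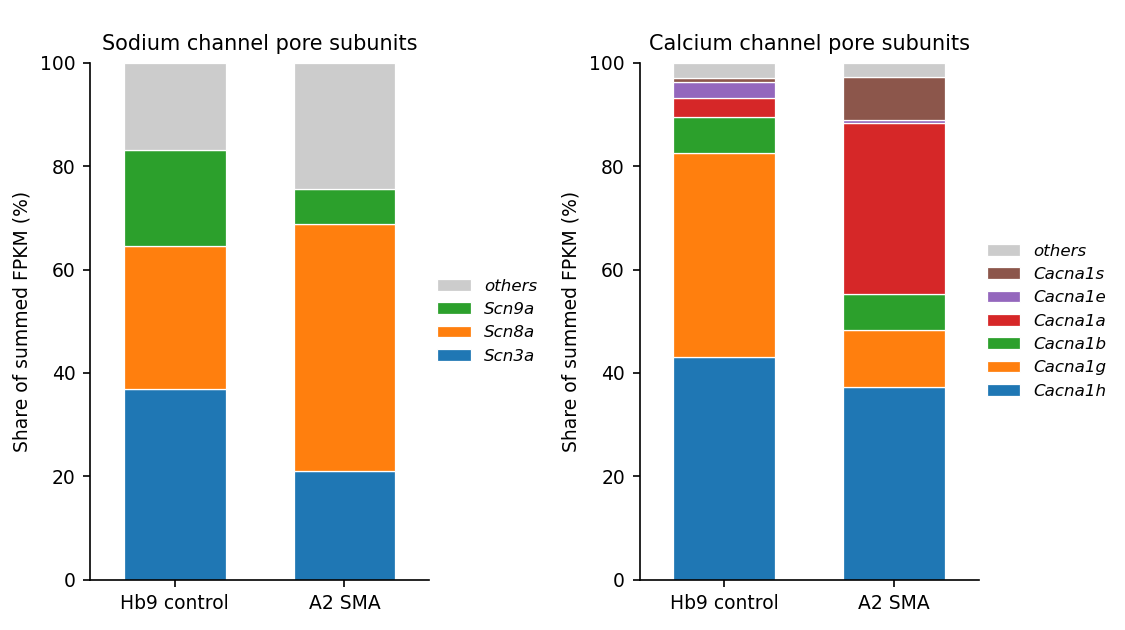
Share of each pore subunit gene in the summed FPKM of the 9 sodium channel pore genes (left) and the 10 calcium channel pore genes (right), in percent, with 1 stacked bar per genotype and the genes not named in the legend joined as others. Scn8a takes 27.5% of the sodium bar in Hb9 MNs and 47.8% in A2 MNs, and Cacna1a takes 3.68% and 33.2% of the calcium bar.

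Of the 3 alpha2delta genes above 1 FPKM, 2 were at least 2-fold lower in A2 MNs, where 22.3% of all symbols were, and 1 of the 2 reached 1 FPKM in Hb9 MNs alone. Cacna2d1, which encodes a target of gabapentin, was at 23.0 FPKM in Hb9 MNs and 4.35 FPKM in A2 MNs, 5.28-fold lower. Cacna2d3 was at 4.38 and 0.226 FPKM, 19.3-fold lower. Cacna2d2, the other gabapentin target, was at 8.33 and 4.18 FPKM, just short of 2-fold. Cacna2d1 and Cacna2d2 had 64.3% and 23.3% of the summed alpha2delta FPKM in Hb9 MNs. In A2 MNs they were close to each other, at 49.5% and 47.7%. The log2 ratio of Cacna2d3 was -4.27, at or above those of 1.31% of all gene symbols.

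All 4 calcium channel beta genes reached 1 FPKM, and 3 were at least 2-fold lower, where 22.3% of all symbols were. Of the 3, 2 reached 1 FPKM in Hb9 MNs alone. Cacnb1, the beta subunit of skeletal muscle that is also made in neurons, was at 24.98 FPKM in Hb9 MNs and 4.88 FPKM in A2 MNs, 5.11-fold lower. Cacnb2, known best from the heart, was at 2.79 and 0.643 FPKM, 4.33-fold lower. Cacnb4, a beta subunit of brain, was at 1.73 and 0.118 FPKM, 14.7-fold lower. Cacnb3, the most abundant of the family, was at 48.2 and 28.2 FPKM, 1.71-fold lower. It is 1 of 2 channel genes for which Cuffdiff gave the status FAIL, the other being Cacng7, so these levels come from estimates that the program marked. The share of Cacnb3 in the summed beta FPKM was 62.02% in Hb9 MNs and 83.3% in A2 MNs. There were 0.404 FPKM of beta transcripts per FPKM of calcium channel pore transcripts in Hb9 MNs and 0.992 in A2 MNs, and 0.186 and 0.257 FPKM of alpha2delta transcripts.

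Of the gamma genes, 6 lie in 2 chromosomal groups. On chromosome 11, Cacng1, Cacng4 and Cacng5 lie within 211.8 kb, from 107564532 to 107776369 of NCBI m37. Cacng4, a TARP of the developing nervous system, was at 49.1 FPKM in Hb9 MNs and 3.36 FPKM in A2 MNs, 14.6-fold lower. Cacng5, also a TARP, was at 1.51 and 0.328 FPKM, 4.61-fold lower. Cacng1 was under 1 FPKM, at 0.203 and 0.0336 FPKM.

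On chromosome 7, Cacng7, Cacng8 and Cacng6 lie within 103.4 kb, from 3333035 to 3436407. Cacng7, a TARP, was the most abundant gamma gene in both genotypes, at 51.6 FPKM in Hb9 MNs and 55.9 FPKM in A2 MNs. Cacng8, a TARP known from the forebrain, was at 3.05 and 6.22 FPKM, 2.041-fold higher. Cacng6, a relative of the muscle gene Cacng1, was at 6.01 and 14.1 FPKM, 2.34-fold higher, with a log2 ratio of 1.23. Cacng6 and Cacng8 were the only channel genes at least 2-fold higher in A2 MNs. Once centred on the median gene, Cacna1s joined them, and 10.4% of all symbols were then at least 2-fold higher.

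Cacng2 and Cacng3, the TARPs of other chromosomes, were under 1 FPKM and lower, at 0.864 and 0.0647 FPKM and at 0.813 and 0.195 FPKM. Of all 8 gamma genes, 5 were lower and 3 higher in A2 MNs by any amount, a share near the 65.9% of all symbols above 1 FPKM that were lower by any amount. Their median log2 ratio was -2.13 over all 8 genes and 0.12 over the 5 genes above 1 FPKM, so the filter decided its sign. Over all 4 genes of each kind the medians were -2.24 for beta and -2.08 for alpha2delta genes. The whole set of calcium channel auxiliary genes had a median of -2.16 over 12 genes, and its sum was 1.84-fold lower, where the pore genes were 5.63-fold lower.

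**Figure D4:**
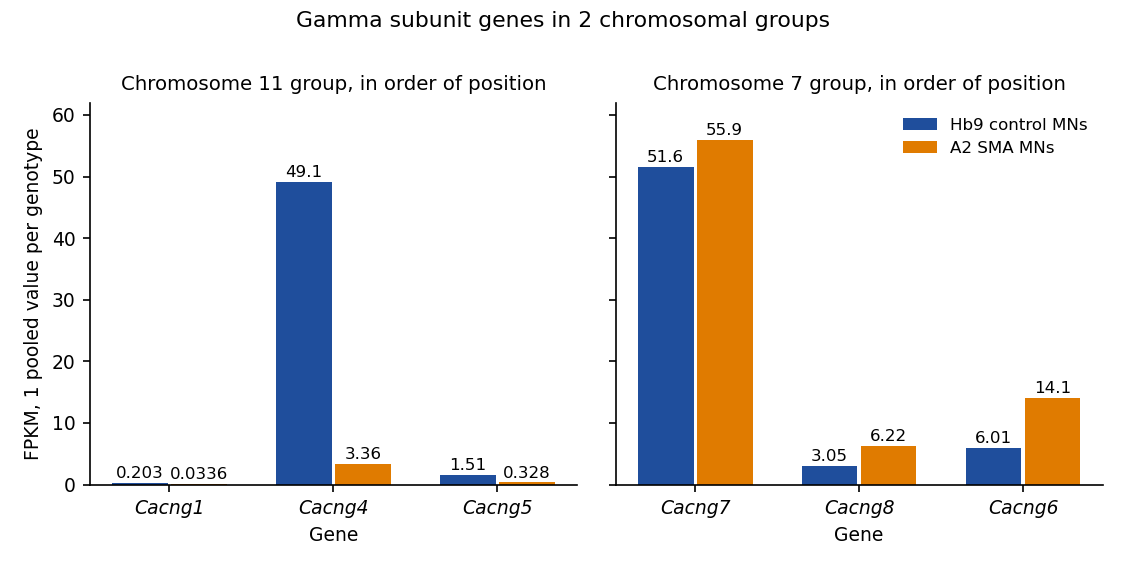
FPKM of the 6 gamma subunit genes that lie in a group on chromosome 11 (left) or chromosome 7 (right), in order of position, with 1 pooled value per genotype as bars from 0 (blue, Hb9 MNs; orange, A2 MNs). Cacng4 is at 49.1 and 3.36 FPKM in the group on chromosome 11, and Cacng7 is at 51.6 and 55.9 FPKM in the group on chromosome 7.

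In order of level, Cacna1h, Cacna1g, Cacng7, Cacng4 and Cacnb3 led the 39 genes in Hb9 MNs, from 82.8 to 48.2 FPKM. In A2 MNs the order was Cacng7, Cacnb3, Cacng6, Cacna1h and Cacna1a, from 55.9 to 11.3 FPKM. Which neighbours in these orders differ beyond the spread between samples cannot be said from pooled values. The channel genes were of modest level among expressed genes. In Hb9 MNs their median was 6.53 FPKM over the 26 genes, and that of all symbols 18.4 FPKM. In A2 MNs the medians were 2.60 and 13.3 FPKM.

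A list of related sodium channel genes held binding partners and scaffolds of these channels, together with the sodium leak channel Nalcn and the subunits Unc79 and Unc80 of its complex. Of its 12 genes in the table, 11 were above 1 FPKM, of which 10 were at least 2-fold lower in A2 MNs and none was higher, against 22.3% and 6.86% of all symbols. Of the 10, 4 reached 1 FPKM in Hb9 MNs alone, and of the 7 genes that reached it in both genotypes 6 were lower, against 17.8% of all such symbols. The median log2 ratio was -2.36. Ank3, which encodes ankyrin-G, the scaffold of the axon initial segment, was at 32.3 FPKM in Hb9 MNs and 7.05 FPKM in A2 MNs. Nrcam, an adhesion molecule of the same site, was at 36.7 and 3.40 FPKM, 10.8-fold lower. Ank2 (29.97 and 6.61 FPKM) and Fgf13 (17.6 and 2.36 FPKM), an intracellular FGF that binds the tail of the pore subunit, were lower too, although Ank2 had the status FAIL. The gene within 2-fold was Nedd4l, which encodes a ubiquitin ligase, at 9.89 and 7.16 FPKM. It was named after its values were seen.

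Of 16 partners of calcium channels above 1 FPKM, 8 were at least 2-fold lower and 1 was at least 2-fold higher, where 22.3% and 6.86% of all symbols were. The higher gene reached 1 FPKM in A2 MNs alone and 1 of the 8 lower genes in Hb9 MNs alone. Of the 14 genes that reached it in both genotypes 7 were lower and 0 higher, against 17.8% and 4.95% of all such symbols. The median log2 ratio was -0.99. Calm3 and Calm2 encode calmodulin, the calcium sensor of these channels, and were within 2-fold. Calm3 was at 243.0 FPKM in Hb9 MNs and 181.8 FPKM in A2 MNs, and Calm2 at 82.8 and 85.5 FPKM. Cask, a synaptic scaffold, was at 46.9 and 17.3 FPKM. Rims1 and Rem2 were named after their values were seen. Rims1, an active zone scaffold that binds calcium channels, was the gene that was higher, at 0.647 FPKM in Hb9 MNs and 5.70 FPKM in A2 MNs. Rem2, a small GTPase that inhibits high-voltage calcium channels, was at 22.8 and 2.37 FPKM.

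Other genes of calcium handling were nearer to the median gene. Of 16 genes above 1 FPKM, 5 were at least 2-fold lower, 1 was at least 2-fold higher and 10 were within 2-fold. Both counts lie near the shares over all symbols, 22.3% lower and 6.86% higher, and 2 of the 5 lower genes reached 1 FPKM in Hb9 MNs alone. The median log2 ratio was -0.22. Atp2a2, the calcium pump of the endoplasmic reticulum in most cells, was at 115.0 FPKM in Hb9 MNs and 97.8 FPKM in A2 MNs. Atp2b1, a calcium pump of the plasma membrane, was at 39.9 and 28.9 FPKM, and both pumps had the status FAIL. Orai3, a store-operated channel whose entry also covers another gene, was at 88.0 and 71.0 FPKM. Atp2a3, a further pump of the endoplasmic reticulum, was at 31.6 and 7.17 FPKM. By a choice made after the values were seen, the sodium-calcium exchangers Slc8a1 (8.53 and 1.29 FPKM), Slc8a2 (13.8 and 4.07 FPKM) and Slc8a3 (3.35 and 0.685 FPKM) were all lower. The inositol trisphosphate receptor Itpr3, chosen in the same way, was higher, at 7.78 and 22.4 FPKM.

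None of the 6 genes of the sodium-potassium pump, which restores the ion gradients that these channels use, was past 2-fold in either direction, where 22.3% of all symbols were lower and 6.86% higher. Their median log2 ratio was -0.17. Atp1b3, which encodes a beta subunit, was at 92.2 FPKM in Hb9 MNs and 62.4 FPKM in A2 MNs. Atp1b1, another beta subunit gene, was at 41.0 and 43.1 FPKM.

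**Figure D5:**
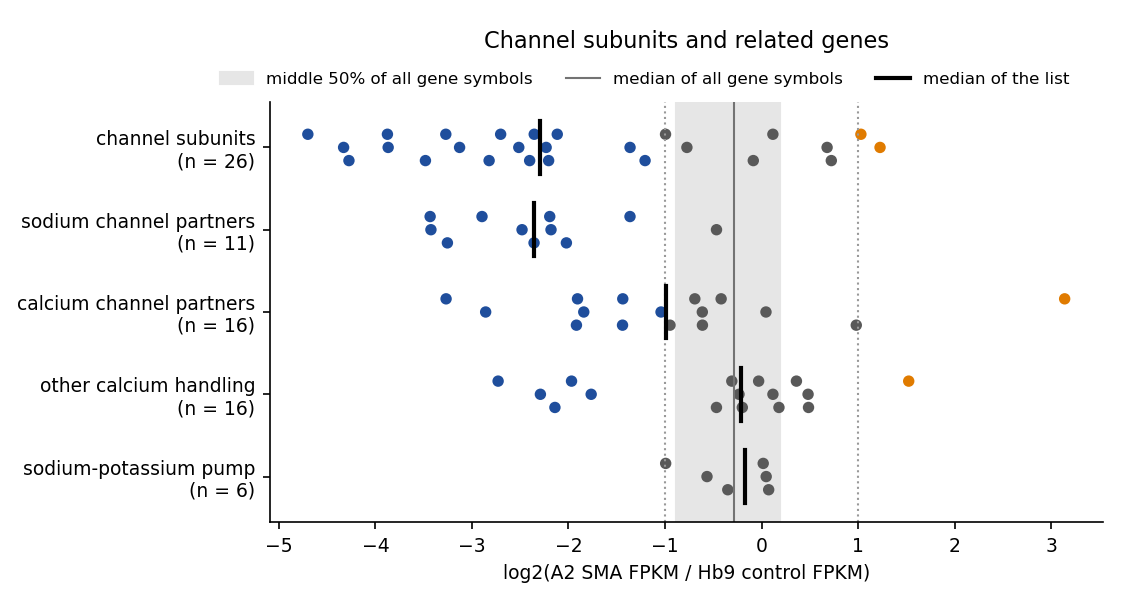
Log2 ratio of A2 SMA over Hb9 control FPKM for the channel subunit genes and 4 lists of related genes, each point being 1 gene above 1 FPKM in at least 1 genotype and each black bar the median of its list. The medians are -2.29 for channel subunits, -2.36 for sodium channel partners, -0.99 for calcium channel partners, -0.22 for other calcium handling and -0.17 for the pump, against -0.29 for all gene symbols (gray line, with their middle 50% as a band).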

How the data were processed

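RNA-seq libraries (TruSeq, total RNA of sorted GFP-positive cells) were made from 6 samples, 3 per genotype. Per the labels, the authors used FastQC 0.10.1, cutadapt, TopHat2 2.04, Cufflinks and Cuffdiff. The deposited Cuffdiff table gives 1 FPKM value per genotype and gene, normalized by the authors for transcript length and depth, on NCBI m37 coordinates. Its columns of log2 fold change, test statistic, p-value and q-value hold the authors' own comparison and were not used, and the status column served only as a quality flag. No read counts were analysed here, so the depth behind a value is unknown, and neither an error nor a test could be had from 1 value per genotype.

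Symbols were split at commas, the entry with the highest FPKM was kept for each, and ratios were taken without a pseudocount in Python 3.11.15 (pandas 2.3.3, numpy 2.4.6), with figures drawn in matplotlib 3.10.9. A call needed at least 1 FPKM in either genotype and a 2-fold difference. The counting scripts were tested on simulated data. Channel genes of at least 1 FPKM are named with their values, except 2 that are not reported here, and of each other list at most the 4 genes highest in either genotype, plus Smn1; any further gene is said to have been named after its values were seen. The channel genes and the lists were chosen with earlier results of these data known. Alternatives were pseudocounts of 0.1 and 1 FPKM, no filter or a filter at 5 FPKM, centring on the median gene, summing the entries of a symbol, leaving out shared or FAIL entries, and limits of 1.5-fold and 4-fold. With no replicate spread, a log2 value was counted as moved when it shifted by over 0.58 (1.5-fold), and a count of genes when it differed by over 1.5 times. Promoters came from a RefSeq table of GRCm38.p6. Sptbn4, Slc18a3, Tubb3 and Map2 were listed but not analysed here.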

Additional observations from a re-analysis of the deposited data

How the results depend on the processing

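No paired analysis was possible because the table holds 1 pooled value per genotype, and for the same reason no sample could be left out. No log2 ratio changed sign, and 130 of 152 summary values and 186 of 197 values of single channel genes stayed within the tolerance. With a pseudocount of 1 FPKM, 1 channel gene was at least 2-fold higher (4.35% of all symbols), and the median log2 ratios were -1.38 for sodium channel pore, -2.10 for calcium channel pore, -1.01 for sodium channel beta, -1.06 for calcium channel auxiliary and -1.25 for all channel genes. Without a filter, 28 channel genes were lower (25.9% of 24134 symbols), with medians of -1.47 for sodium channel pore and -1.16 for sodium channel beta genes. At 5 FPKM, 10 channel genes were lower (19.9% of 12326 symbols), as were 6 sodium channel partners and 3 genes of other calcium handling, with medians of -1.61 for sodium channel beta and -0.88 for calcium channel auxiliary genes. Centred on the median gene, 2 calcium channel partners were higher (10.4% of all symbols). At 4-fold, where 9.01% of all symbols were lower and 1.87% higher, 0 channel genes were higher, 2 calcium channel partners were lower, and of other calcium handling 3 genes were lower and 0 higher. At 1.5-fold, where 35.3% of all symbols were lower and 12.7% higher, 4 channel genes and 2 calcium channel partners were higher, and 1 pump gene was lower. The stricter filter and limit leave fewer genes that can pass, and the pseudocount draws ratios of low genes toward 0. Precision is limited by the single value per genotype.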

Other observations

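The genes beside the gamma subunit groups were looked at after the values of the groups were known. Next to Cacng7 on chromosome 7, Prkcc, which encodes a protein kinase C of neurons, was at 4.66 FPKM in Hb9 MNs and 6.24 FPKM in A2 MNs. Myadm, one gene further, was at 60.5 and 64.9 FPKM. Tarm1, on the other side of the group, was at 0.763 and 2.67 FPKM. Prkcc, Myadm and Cacng7 were within 2-fold, and Tarm1, Cacng8 and Cacng6 were at least 2-fold higher. Beside the group on chromosome 11, Helz was at 38.2 and 41.8 FPKM and Prkca at 4.97 and 3.49 FPKM, both within 2-fold, while Cacng4 and Cacng5 between them were at least 2-fold lower.

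On chromosome 9, Scn2b was 4.69-fold lower beside genes that were not. Among neighbours above 1 FPKM, Mpzl3 was at 1.63 FPKM in Hb9 MNs and 1.64 FPKM in A2 MNs, and Mpzl2 was at 2.21 and 10.2 FPKM. Csrnp3, beside Scn2a1 on chromosome 2, was at 11.7 and 4.27 FPKM.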
